A study of Mus musculus with 31 samples.

Results

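Intergenic peaks were the accessible regions that the deposited annotation placed away from promoters, exons, introns and the 3' ends of genes. All peaks of the deposited class intergenic were taken, after every peak that held over 0.2% of all counts had been left out. The 15 peaks left out, of all classes, held 37.59% of all counts, and 25.35% to 51.0% in single libraries. They were left out of the peaks described, but stayed in the main fits, the scaling and the library totals. This gave 32221 intergenic peaks of 104979 peaks in all (30.7%), lying in 23633 separate regions because 9672 of them overlapped another peak. Of 32223 peaks in the deposited class, 2 were left out, with 0.498% and 0.201% of all counts. The intergenic peaks with the highest shares among those kept, assigned to Dpy19l2 and Gm43393, held 0.060% and 0.054%. Against the GENCODE annotation of the same build, 99.7% of the intergenic peaks lay outside every annotated gene and over 1000 bp from a transcription start, so the class and the coordinates gave the same picture. The gene named with each peak is the one that the deposited table assigned to it, which held the nearest transcription start for 82.2% of them.

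The 31 libraries were ATAC-seq of regulatory T cells (Tregs) sorted from the spleen of C57BL/6 mice of an RFP-FoxP3+ line. Mice had received 5 µg of mIL-2 (IL2), 20 µg of mIL-2/CD25 (FP) or 100 µL of PBS. Groups held 3 libraries each of PBS, IL2 and FP at 0.75 h and 16 h, 3 of PBS and 3 of FP at 72 h, and 3 of PBS and 4 of FP at 168 h. The times after 0.75 h come from the sample titles, since the protocol text names 0.75 h for every sample, and the age of the mice was not given in the sources used here. IL2 and FP differed in the injected mass as well as in the molecule, so a difference between them is one between 2 regimens. The extraction protocol mentions 2 technical replicates of each biological sample without saying which libraries these are, so the p-values measure the spread between libraries, part of which may be technical.

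ATAC-seq counts the places where a transposase can insert into chromatin, and so marks promoters, enhancers and insulators as peaks of reads. Interleukin-2 binds a receptor that Tregs carry at a high level because they express its alpha chain CD25; the receptor activates JAK kinases, which phosphorylate STAT5, and STAT5 dimers then bind palindromic sites of the form TTC...GAA. Many STAT5 sites of T cells lie in distal enhancers, and distal elements in general vary more between cell states than promoters do. Sites for CTCF, a protein that anchors chromatin loops, are another common content of distal peaks.

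The sequences below show the STAT5 matches of intergenic peaks that rose after the injections, on the plus strand of GRCm38 as read from the RefSeq assembly, with each match in capitals. A match was any of TTCCNAGAA, TTCCNGGAA, TTCTNAGAA or TTCTNGGAA (N is any base), searched on both strands of every peak; the first and the last of these are each other's reverse complement. The peaks assigned to Ccdc71l (chr12:32376743-32376955), Gm17490 (window chr2:11629662-11629901), Gm43177 (chr5:52111715-52111954) and Gm47819 (chr12:85382989-85383228) were among the 5 rises after IL2 at 0.75 h that the rule for named peaks gave, which takes the largest with 1 peak per assigned gene. The peaks of Gm47635 (chr13:85502916-85503155) and Cd2 (chr3:101272987-101273226) are shown because they rose both after IL2 at 0.75 h and after FP at 16 h, and were chosen after their values were seen. The 2 matches stood 72 bases apart in the Gm17490 peak, 17 in the Gm47819 peak, 79 in the Gm47635 peak and 35 in the Cd2 peak. Both matches of the Gm17490 and the Gm47635 peaks were of the TTCTNAGAA form, and the 4 peaks with 2 matches were not alike in spacing.
Ccdc71l: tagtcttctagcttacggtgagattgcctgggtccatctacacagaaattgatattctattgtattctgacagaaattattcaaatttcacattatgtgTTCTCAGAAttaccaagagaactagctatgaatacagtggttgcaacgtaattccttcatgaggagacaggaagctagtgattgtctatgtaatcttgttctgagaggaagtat
Gm17490: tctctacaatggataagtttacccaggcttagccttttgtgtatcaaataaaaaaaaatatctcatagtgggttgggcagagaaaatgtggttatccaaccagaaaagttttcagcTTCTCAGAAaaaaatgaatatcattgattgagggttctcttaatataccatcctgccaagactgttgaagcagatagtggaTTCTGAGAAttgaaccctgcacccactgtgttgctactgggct
Gm43177: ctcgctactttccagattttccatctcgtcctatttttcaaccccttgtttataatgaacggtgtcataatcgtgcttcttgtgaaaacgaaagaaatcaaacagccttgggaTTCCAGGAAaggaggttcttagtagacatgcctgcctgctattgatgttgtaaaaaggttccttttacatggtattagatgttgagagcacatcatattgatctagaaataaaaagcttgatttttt
Gm47819: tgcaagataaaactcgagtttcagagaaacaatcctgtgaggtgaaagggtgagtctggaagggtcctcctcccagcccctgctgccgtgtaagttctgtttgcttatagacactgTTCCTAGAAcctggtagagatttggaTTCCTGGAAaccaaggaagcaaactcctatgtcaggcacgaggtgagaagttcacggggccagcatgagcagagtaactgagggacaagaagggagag
Gm47635: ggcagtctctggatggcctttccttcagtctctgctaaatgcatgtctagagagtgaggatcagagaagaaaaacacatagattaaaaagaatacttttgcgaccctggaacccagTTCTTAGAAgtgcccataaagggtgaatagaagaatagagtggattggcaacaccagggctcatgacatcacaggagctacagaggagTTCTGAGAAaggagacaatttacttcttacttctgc
Cd2: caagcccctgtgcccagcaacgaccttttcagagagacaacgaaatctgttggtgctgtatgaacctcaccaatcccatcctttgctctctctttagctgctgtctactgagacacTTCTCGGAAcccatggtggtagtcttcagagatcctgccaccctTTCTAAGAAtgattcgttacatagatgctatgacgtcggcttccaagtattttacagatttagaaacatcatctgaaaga

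Libraries held 7385040 to 59647438 counts over all peaks, of which 791607 to 6612509 lay in intergenic peaks. At the promoter peaks of 5 Treg marker genes, the level ran from 11.7 to 23.3 CPM per kb (CPM being counts scaled to the library's total, here per kilobase of peak) over the libraries. At promoter peaks of the listed genes of other cell types that had one, it ran from 2.67 to 11.2 for B cells, 4.79 to 15 for CD8 T cells, 2.16 to 7.64 for NK cells, 3.04 to 8.08 for myeloid cells and 2.98 to 20.1 for erythroid cells. Over all assigned peaks the NK cell list ran from 8.17 to 20.7 and the Treg list from 7.06 to 15.1 CPM per kb; the part of other cells in the results was not tested. No peak was assigned to the B cell genes Cd79b and Ms4a1, the NK cell gene Ncr1, the myeloid gene Csf1r or the erythroid gene Hbb-bs; of the markers listed, 2 of 2 CD8 T cell, 2 of 3 NK cell, 4 of 5 myeloid and 4 of 5 erythroid genes had a peak. The libraries 168 h PBS 1 and 168 h FP 2, with 7385040 and 12316912 counts, stood apart, with a mean correlation of 0.598 and 0.656 over intergenic peaks with the other libraries, against 0.706 to 0.813 for the rest. Counts of libraries of 1 group differed by more than counting noise (chi-square per degree of freedom 5.40 to 36.5), so none was treated as a library deposited more than once; this does not tell whether libraries came from separate mice.

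Intergenic peaks were narrow and modest in level. Their median width was 300 bp, against 333 bp for intron peaks and 591 bp for promoter peaks, and their median GC content was 46.2% against 46.7% and 58.5%. The median level in PBS libraries was 5.83 CPM per kb, against 6.26 for intron and 11.3 for promoter peaks. A median of 17.3 kb separated an intergenic peak from the nearest transcription start, and 42.9 kb from the nearest start of a coding gene: 4749 peaks lay within 5 kb of a start, 20970 at 5 to 50 kb, 5758 at 50 to 200 kb and 744 beyond 200 kb. At least 1 STAT5 match was present in 6.57% of intergenic peaks (0.197 matches per kb), in 7.83% of intron peaks (0.224 per kb) and in 6.94% of promoter peaks (0.120 per kb). A match to the CTCF core motif was present in 13.2% of intergenic peaks, 11.1% of intron peaks and 8.30% of promoter peaks. Among intergenic peaks the CTCF share went down with distance from a start, from 17.0% within 5 kb to 3.98% beyond 100 kb, and the level from 6.66 to 4.53 CPM per kb.

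The spread between libraries of a group was wider at intergenic peaks than at promoters. The biological coefficient of variation, the relative spread left after counting error, had a median of 46.5%, 45.3%, 39.6% and 51.2% over intergenic peaks at 0.75, 16, 72 and 168 h. Over promoter peaks it was 32.1%, 29.0%, 27.1% and 32.2%. Intron peaks lay between, at 43.2%, 42.1%, 36.1% and 47.6%. The median level in PBS ran the other way, at 1.61 CPM for intergenic, 1.87 for intron and 5.55 for promoter peaks. The part of level in the spread was not tested.

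Taken as 1 quantity, the share of counts in intergenic peaks passed in no comparison. The share of kept counts that fell in them was 16.8% ± 0.212 in PBS, 17.2% ± 0.436 in IL2 and 17.2% ± 0.854 in FP at 0.75 h (SD, n = 3 each), and 16.2% ± 0.812, 15.4% ± 1.41 and 15.5% ± 0.420 at 16 h (SD, n = 3 each). It was 16.6% ± 1.74 in PBS and 15.8% ± 0.859 in FP at 72 h (SD, n = 3 each), and 18.2% ± 1.87 (n = 3) and 16.4% ± 1.60 (SD, n = 4) at 168 h. None of the 6 comparisons with PBS passed in an exact two-sided permutation test (p from 0.114 to 0.7; adjusted over the 6, 0.686 to 0.7), where 3 libraries against 3 cannot go below 0.1 and 3 against 4 cannot go below 0.0571. The largest difference, FP minus PBS of -1.86 percentage points at 168 h, stood beside the 3 lowest library totals of the series, 7385040 and 13431581 in PBS and 12316912 in FP; the part of depth in it was not tested.

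At 0.75 h after IL2, most intergenic peaks that were called had become more accessible. Of 32221 intergenic peaks, 30081 passed the filter on low counts and were tested, of which 121 became more accessible and 4 less (quasi-likelihood test of edgeR at an adjusted p of 0.05; 3 libraries a group). That is 0.416% of the tested intergenic peaks, against 0.497% of all tested peaks (0.488% higher, 0.00896% lower), 0.827% of intron peaks higher and 0.162% of promoter peaks higher. DESeq2 called 269 higher and 50 lower, beside 1116 of 100468 tested peaks of all classes in either direction. A fit with the replicate number as a block, over the PBS, IL2 and FP libraries of this time, is given too. It called 250 higher and 15 lower, with all 121 and all 4 among them, beside 0.978% of all tested peaks. Deviations of same-numbered PBS and IL2 libraries correlated at 0.11 to 0.313, and differently numbered pairs were not computed for comparison. The labels do not say that a number marks a shared batch. The 121 lay in 117 regions assigned to 109 genes, with a median log2 fold change of 1.74 and a range of 0.87 to 4.32. In all 125 called peaks the IL2 and PBS libraries did not overlap, which held for 11.5% of all tested peaks. Called peaks were wider than the tested ones (median 733 bp against 323 bp) and higher (median log2 CPM 3.15 against 0.72), and their median distance to a transcription start was 13.2 kb against 16.8 kb. Leaving out the libraries PBS 1, PBS 3, IL2 1 or IL2 3 lowered the number called to 55, 46, 55 and 53.

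Of the 5 rises that the rule took by size after IL2 at 0.75 h, the following 4 lay outside the Il2ra region. The rule took only called peaks whose groups did not overlap, so the separation of the groups at all 5 was set by it. The Ccdc71l peak, 1.75 kb from the start of that gene, had 4.63, 4.30 and 4.84 CPM in the IL2 libraries and 0.329, 0.516 and 0 CPM in PBS. The log2 fold change was 3.99 ± 0.82 (SE, edgeR, adjusted p = 0.0304). With PBS near 0 its size depends on the prior count, and the call was lost in 7 of 18 alternative fits. Ptpn1 encodes PTP1B, which removes phosphate from JAK family kinases and the insulin receptor. An intergenic peak 21.4 kb from its start (chr2:167909933-167910693) went from 1.07, 0.979 and 0.354 CPM to 8.32, 9.56 and 5.98 CPM, with no STAT5 match in its 761 bases. The lowest IL2 library was well above the highest PBS library, and the peak rose by 3.29 ± 0.44 on the log2 scale (SE; edgeR, adjusted p = 0.00179). The Gm43177 peak (chr5:52111715-52112008; nearest coding start Dhx15, 45.8 kb away) rose by 2.60 ± 0.47 (edgeR, adjusted p = 0.0124). The Gm47819 peak (chr12:85382542-85383451) stood at 14.6, 13.2 and 13.4 CPM after IL2 and at 1.23, 4.02 and 1.77 CPM in PBS. It rose by 2.56 ± 0.37 (edgeR, adjusted p = 0.00286), and its nearest start was that of Tmed10 at 7.70 kb. The Gm43177 call was lost in 3 of 18 alternative fits, and the Ptpn1 and Gm47819 calls in 0.

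Some rises lay upstream of Il2ra, the gene of CD25. The deposited table assigned them to Gm17490, whose start was nearer, at 3.26 kb and at 5.62 to 5.77 kb. The peak at chr2:11629526-11629989, 12.8 kb from the Il2ra start, had 6.39, 3.95 and 5.17 CPM after IL2 and 0.123, 0.979 and 0.657 CPM in PBS. All IL2 libraries exceeded all PBS libraries, with a log2 fold change of 3.16 ± 0.56 (SE; edgeR, adjusted p = 0.0103). At 22.2 to 22.3 kb from that start, 3 overlapping peaks called from the same stretch of DNA also rose (chosen after their values were seen); the narrowest (chr2:11620060-11620497) had 7.04, 5.56 and 5.62 CPM after IL2 and 0.452, 1.44 and 0.556 CPM in PBS. It rose by 2.90 ± 0.46 (edgeR, adjusted p = 0.00502) and, like the peak nearer to Il2ra, held 2 STAT5 matches. The 14 intergenic peaks that the table did assign to Il2ra lay in 5 regions, and 0 of them passed; the one with the highest level (chr2:11636121-11636568, 6.24 kb from the start) had 3.17, 4.78 and 4.11 CPM after IL2 and 1.56, 4.33 and 1.16 CPM in PBS, overlapping groups with a difference of 0.77 ± 0.49 (edgeR, adjusted p = 1).

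In the gene lists used for grouping, 3 assigned intergenic peaks rose. The 11 lists held 162 genes, 88 of which had an intergenic peak, 420 peaks in all; beside these 3, 0.402% of the tested intergenic peaks and 0.488% of all tested peaks were called higher. With the replicate block 7 assigned peaks of the lists were higher and 1 lower. Ccr7 encodes the chemokine receptor that brings T cells into lymph nodes. Its peak at chr11:99180005-99180747, 24.9 kb away with 2 STAT5 matches, had 6.56, 5.73 and 7.17 CPM after IL2 and 0.699, 1.70 and 1.11 CPM in PBS, without overlap, and rose by 2.47 ± 0.40 (edgeR, adjusted p = 0.00624). Nfkbiz encodes an inhibitor-like cofactor of NF-kB. Its peak (chr16:55809415-55810266, 8.25 kb away, no STAT5 match) had 15.1, 24.2 and 18.2 CPM after IL2 against 5.30, 7.89 and 5.30 CPM and rose by 1.63 ± 0.30 (edgeR, adjusted p = 0.0144). Prkcq encodes protein kinase C theta, which carries signals from the T cell receptor. Its peak (chr2:11169943-11170375, 1.73 kb away, 2 STAT5 matches) had 9.74, 8.25 and 13.5 CPM against 2.59, 4.18 and 1.87 CPM, again without overlap, and rose by 1.86 ± 0.36 (edgeR, adjusted p = 0.0204). Of 18 alternative fits, the call was lost in 5 for Prkcq, 4 for Nfkbiz and 0 for Ccr7.

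Among the other lists, without the block no assigned intergenic peak passed after IL2 at 0.75 h. The IL-2 receptor and STAT5 response list had 60 intergenic peaks of 12 genes, all tested, in 33 regions, so some stretches of DNA were counted more than once. Of the 60, 0 were called and 51 had a log2 fold change above 0, beside 46.4% of all tested intergenic peaks. The median of the list was 0.73, beside -0.02 over all tested peaks. Within it the median was 1.56 over 2 peaks of Pim1, a kinase gene induced by cytokines, 1.18 over 3 of Cish, which encodes a feedback inhibitor of cytokine receptors, 1.12 over 2 of Il2rb, the receptor's beta chain, and 0.81 over 12 peaks of Il4ra that lay in 2 regions. It was 0.76 over 14 peaks of Il2ra, 0.72 over 5 of Gadd45g, 0.64 at 1 of Lta and 0.39 over 4 of Socs1. Medians were lower for Bcl2 (0.215, 12 peaks) and for Socs3 (0.05, 2 peaks), which encodes another feedback inhibitor, and below 0 for Il7r (-0.11, 2 peaks) and Osm (-0.72, 1 peak). The lowest adjusted p of the list belonged to an Il2rb peak (chr15:78502386-78503388; 1.49 ± 0.34, edgeR adjusted p = 0.0617). With the replicate block this Il2rb peak was called, at 1.57 (edgeR, adjusted p = 0.00514). Medians of the other 10 lists ran from -0.18 for cell cycle (10 peaks) to 0.28 for Treg identity (39 tested). The best-covered intergenic peaks of Bcl2, Cish and Ikzf2 differed by 0.75 ± 0.34, 0.22 ± 0.26 and 0.29 ± 0.27 (edgeR, adjusted p = 0.839, 1 and 1). In other comparisons with PBS the IL-2 receptor and STAT5 response list also had many peaks above 0, with 0 called. Of 60 peaks these were 38 (FP, 0.75 h), 42 (IL2, 16 h) and 43 (FP, 16 h), and of 59 they were 49 (FP, 72 h) and 35 (FP, 168 h).

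Some risen peaks lay near a listed gene without being assigned to it. A transcription start of a listed gene was within 100 kb of 13 of the 121 risen peaks (10.7%), beside 3.73% of all 32221 intergenic peaks; this count was chosen after the values were seen. Of the 13, 4 lay near Il2ra and 3 of these overlapped one another, and for the 32 rises after FP at 16 h the count was 0 (0.0%). Besides Il2ra, Ccr7, Prkcq and Nfkbiz, these were Mcl1, an anti-apoptotic gene (a peak 63.2 kb away, log2 fold change 2.07 ± 0.33), and Lrrc32, whose protein displays latent TGF-beta on Tregs (peaks at 70.4 and 88.3 kb, 1.68 ± 0.30 and 1.86 ± 0.38). The rest lay 90.4 kb from Fos, 52.5 kb from Osm and 94.7 kb from Tnfrsf1b. Far beyond that range, 2 risen peaks assigned to Gm22521 lay 822 and 836 kb from Myc, the nearest coding gene: the peak at chr15:62823799-62824528 had 20.6, 16.2 and 19.1 CPM after IL2 and 6.00, 4.64 and 6.26 CPM in PBS. The 2 groups were separate, and the peak rose by 1.72 ± 0.26 (edgeR, adjusted p = 0.00317).

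The 4 falls were peaks without a STAT5 match, and their number depended on the fit. It was 50 by DESeq2, 15 with the replicate block and 0 with the library total as a covariate. Without PBS 3 it was 0, and without PBS 1, IL2 1 or IL2 3 it was 1. The 1700011L03Rik call was lost in 12 of 18 alternatives and the Cntn6 call in 8 of 18. The Cntn6 peak (chr6:104907160-104908095, 157 kb from the nearest start) had 0.987, 0.912 and 1.06 CPM after IL2 and 3.33, 3.87 and 8.89 CPM in PBS, and fell by 2.43 ± 0.53 on the log2 scale (edgeR, adjusted p = 0.0436). The 1700011L03Rik peak (chr8:46943231-46943808) had 2.49, 2.69 and 3.18 CPM against 7.15, 8.61 and 7.22 CPM and fell by 1.46 ± 0.32 (edgeR, adjusted p = 0.0469). The other 2, assigned to Gm25495 and Gm19223, had 1.15 to 2.27 CPM and 1.32 to 2.22 CPM in PBS and at most 0.217 and 0.122 CPM after IL2; their fitted fold changes depend on the prior count and are not given. They were chosen after their values were seen.

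**Figure D1:**
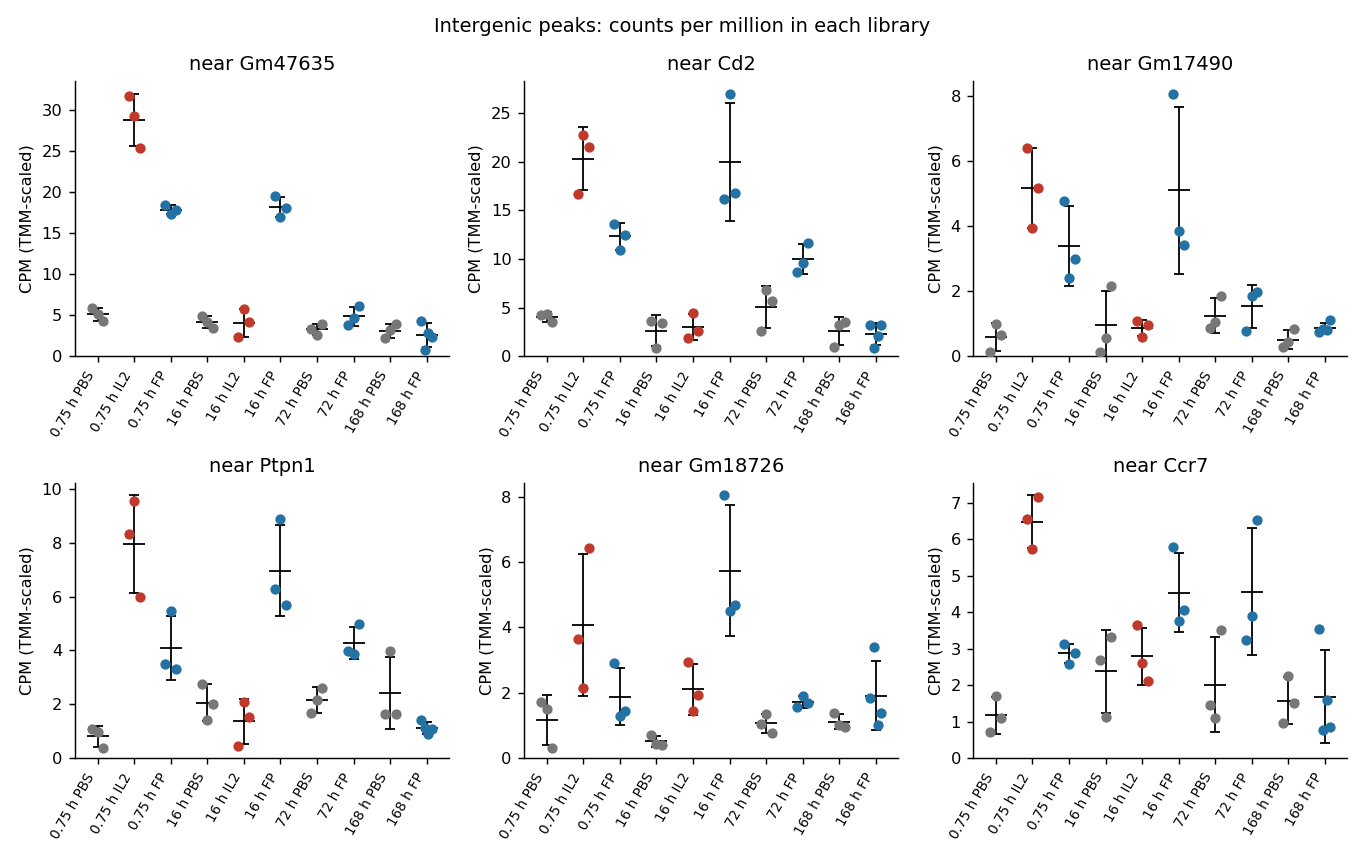
CPM (TMM-scaled, linear axis from 0) of 6 intergenic peaks in each of the 31 libraries, by group; points are libraries, black bars the mean and SD, with PBS in grey, IL2 in red and FP in blue. The Gm47635 and Cd2 peaks are high after IL2 at 0.75 h, after FP at 0.75 h and after FP at 16 h, and near their PBS level after IL2 at 16 h.

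Risen intergenic peaks carried STAT5 matches, and more matches went with larger rises. The motif was chosen with the presence of STAT5 matches in risen peaks of these data already known. The shares and medians by match, here and below, therefore describe that result and are not a fresh test of it. After IL2 at 0.75 h, 90 of the 121 rises (74.4%) held a match, beside 6.90% of the tested intergenic peaks. Of all intergenic peaks, 0.103% of the 30105 with no match were called higher, 2.88% of the 1944 with 1 match, 17.7% of the 164 with 2 and 5 of the 8 with 3 or more. The median log2 fold change over all peaks with a value in a fit without a filter was -0.08, 0.25, 0.90 and 1.59 in that order, the last over only 8 peaks. Intron peaks gave 0.262%, 5.73%, 19.0% and 40.0% (the last of 20 peaks), and promoter peaks 0.0329%, 1.11%, 11.0% and 8.33% (the last of 12 peaks). Peaks with matches were wider (median 542 bp with 1 match against 280 bp with none), so the same was counted within widths: among intergenic peaks over 600 bp, 0.450% with no match, 4.42% with 1 and 26.4% with 2 or more were called higher, at PBS medians of 6.20, 5.97 and 5.85 CPM. Among those over 300 and up to 600 bp the shares were 0.0723%, 2.23% and 11.3%. Up to 300 bp they were 0.019% of 15756, 0.817% of 367 and 0 of 13, where PBS medians were 0.834 to 0.894 CPM. The called share thus did not keep the order among the narrowest peaks, on only 13 with 2 or more matches. Their median log2 fold changes did, at -0.12, 0.15 and 1.39. With the replicate block 170 of the 250 rises (68.0%) held a match.

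The spellings of the match gave similar shares after IL2 at 0.75 h. Peaks with 1 match were called higher in 2.78% of cases for TTCCNGGAA (432 peaks), 3.21% for TTCTNAGAA (716) and 2.64% for the mixed form (796), with median log2 fold changes of 0.29, 0.32 and 0.17. After FP at 16 h the shares were 0.231%, 1.26% and 0.628%, on 1, 9 and 5 called peaks. Where the nearest match was within 50 bases of the peak's centre, 6.04% of 679 peaks were called higher; at 50 to 150 bases this was 4.10% of 805, and beyond 150 bases 2.53% of 632. Peaks with 2 matches up to 30 bases apart had a median of 1.27 with 8.70% of 23 called higher, and those further apart 0.86 with 19.1% of 141 called higher, so the median and the share ran in opposite directions. These are descriptions of the letters, not evidence of binding. AP-1 (TGANTCA), RUNX (TGTGGTT) and ETS (ACAGGAAG) matches were also more frequent in the 121 rises than in the tested intergenic peaks (29.8% against 14.4%, 34.7% against 12.9% and 23.1% against 10.2%), and CTCF matches less frequent (3.31% against 14.0%); the rises were the wider peaks, and no test of these shares was made.

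**Figure D2:**
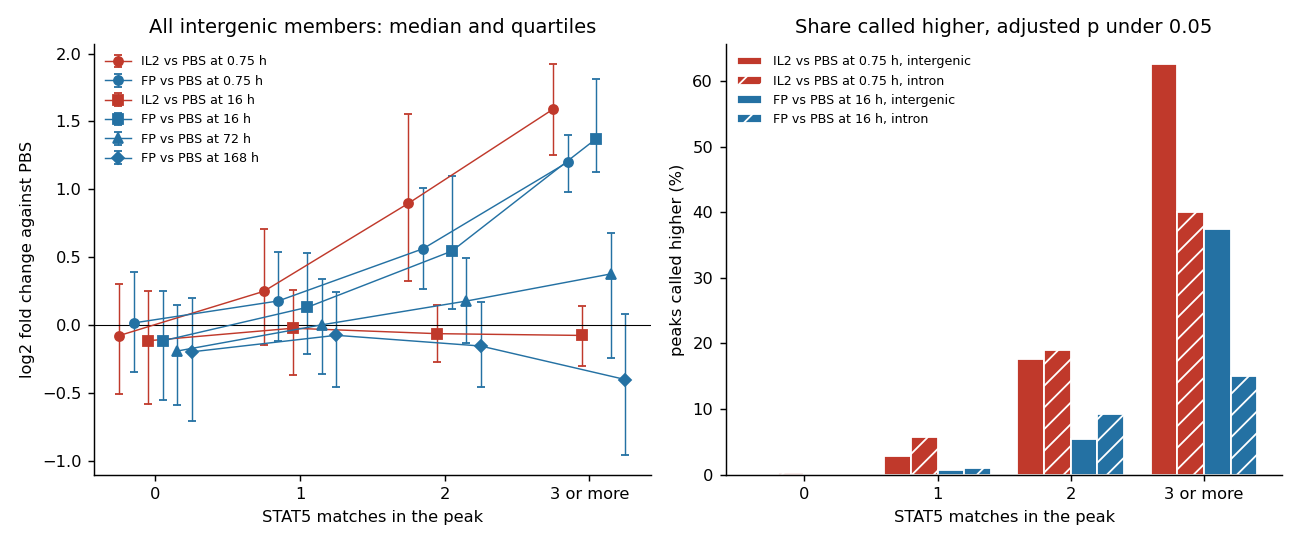
Left, the median log2 fold change against same-time PBS (bars, the quartiles over peaks) of all intergenic peaks with 0, 1, 2 or at least 3 STAT5 matches, in 6 comparisons; right, the percentage called higher in 2 of them, for intergenic (plain) and intron (hatched) peaks. The medians climb with the number of matches after IL2 and FP at 0.75 h and after FP at 16 h, and stay flat after IL2 at 16 h.

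After FP at 0.75 h a single intergenic peak passed in the main fit. It was the Gm47635 peak, 1 of 30081 tested (0.00332%, against 0.00199% of all tested peaks), with no overlap between FP and PBS, as in 8.42% of all tested peaks. It had 18.4, 17.3 and 17.8 CPM after FP, 31.7, 29.3 and 25.4 CPM after IL2 and 5.88, 5.16 and 4.34 CPM in PBS. The 3 groups were separate from one another. The rise was 1.80 ± 0.23 with FP and 2.48 ± 0.23 with IL2 (SE; edgeR, adjusted p = 0.0175 and 2.2e-04). Gm47635 is a predicted gene, and the nearest coding start, that of Rasa1, was 214 kb away. With the replicate block 36 intergenic peaks were higher and 1 lower, beside 0.128% of all tested peaks, and 30 of the 36 held a STAT5 match. DESeq2 called 56 intergenic peaks higher and 2 lower in the FP comparison, beside 222 of 100468 tested peaks of all classes. The Gm47635 call was lost when either FP 1 or FP 2, any PBS library or IL2 1 or IL2 3 was left out. No intergenic peak was called between FP and IL2 at this time (0 of 30081 by edgeR, with 1262 at unadjusted p under 0.05, beside 0.0% of all tested peaks). DESeq2 called 2, beside 6 of 100468 tested peaks of all classes. The FP and IL2 groups were free of overlap at 9.35% of all tested peaks. The Cd2 peak, for example, was at 13.6, 10.9 and 12.5 CPM after FP and 16.7, 22.8 and 21.5 CPM after IL2, a difference of -0.71 ± 0.24 (edgeR, adjusted p = 1). Intergenic peaks with 0, 1, 2 and 3 or more matches had median log2 fold changes of 0.02, 0.18, 0.56 and 1.20 after FP at 0.75 h. For FP minus IL2 the medians were 0.075, -0.13, -0.315 and -0.54 in the same order of matches.

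At 16 h the 2 regimens differed. After IL2, 0 of 29957 tested intergenic peaks were called (edgeR; 1224 at unadjusted p under 0.05; 0 by DESeq2; 0.0% of all tested peaks), and 9.07% of all tested peaks had no overlap with PBS. After FP, 32 were higher and 0 lower by the same test, 0.107% of those tested against 0.114% of all tested peaks. FP was above IL2 at 50 intergenic peaks and below it at 0 (0.167% against 0.141% of all tested peaks). The 32 lay in 32 regions and the 50 in 44, since 7 of the 50 were overlapping peaks assigned to Lrpap1, each with 1 STAT5 match. DESeq2 called 120 higher and 21 lower after FP, and 147 higher and 10 lower for FP against IL2. Over all 100771 tested peaks it called 489 and 492. All 32 and all 50 were free of overlap between their 2 groups, as were 12.4% and 10.6% of all tested peaks. STAT5 matches stood in 27 of 32 (84.4%) and 45 of 50, beside 6.92% of the tested intergenic peaks. Of all intergenic peaks with 0, 1 and 2 matches, 0.0166%, 0.772% and 5.49% rose after FP, and 3 of the 8 with more; the medians were -0.12, 0.13, 0.55 and 1.37. After IL2 at 16 h the same medians were -0.12, -0.02, -0.06 and -0.08. These counts rested on every library: leaving out any 1 of the 6 FP and PBS libraries gave 7 to 16 calls after FP, and any 1 of the FP and IL2 libraries 9 to 21 for FP against IL2. With the library total as a covariate the counts were 11 and 4, beside 80 and 34 over all tested peaks.

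The peaks named at 16 h were mostly low in PBS. Cd2 encodes an adhesion receptor of T cells. Its peak (chr3:101272795-101273404, 6.99 kb from the start) had 16.2, 27.0 and 16.8 CPM after FP, 1.92, 4.46 and 2.65 CPM after IL2 and 3.68, 0.843 and 3.42 CPM in PBS. The FP libraries stood above all others and the IL2 and PBS libraries overlapped. FP was higher than PBS by 2.88 ± 0.41 and higher than IL2 by 2.73 ± 0.40 (SE; edgeR, adjusted p = 0.00263 and 0.00242). The Gm18726 peak (chr12:32735233-32735762) lay 83.8 kb from Nampt, which encodes an enzyme of NAD synthesis. It had 8.05, 4.51 and 4.68 CPM after FP, 2.95, 1.43 and 1.93 CPM after IL2 and 0.702, 0.422 and 0.403 CPM in PBS. All 3 groups were separate here; the rise was 3.45 ± 0.49 with FP (edgeR, adjusted p = 0.00263), and the IL2 difference of 2.00 ± 0.48 did not pass (edgeR, adjusted p = 1).

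A further 3 peaks were named at 16 h. The Gm43674 peak (chr3:21965612-21965920, nearest coding start Tbl1xr1 at 111 kb) had 7.23, 6.27 and 5.37 CPM after FP and 0.454, 0.141 and 1.56 CPM in PBS, a rise of 3.08 ± 0.56 (edgeR, adjusted p = 0.0159). A peak assigned to 2210039B01Rik (chr12:73566448-73567167), 17.6 kb from Prkch, which encodes protein kinase C eta, had 5.21, 7.83 and 4.58 CPM against 0.909, 0.422 and 1.51 CPM and rose by 2.60 ± 0.51 (edgeR, adjusted p = 0.0321). Eri1 encodes an exonuclease that trims histone messenger RNA. The peak 12.1 kb from it (chr8:35508336-35508981) had 5.68, 9.25 and 6.64 CPM against 2.48, 0.984 and 1.31 CPM and rose by 2.15 ± 0.42 (edgeR, adjusted p = 0.0349). In all 3 the lowest FP library was above the highest PBS library, as the rule for named peaks required. Of 17 alternative fits, the call was lost in 4 for Gm43674, 9 for 2210039B01Rik and 7 for Eri1, and in 0 for Cd2 and Gm18726.

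The early IL2 and the later FP comparison called some of the same peaks, in comparisons with no library in common. Of the 121 rises after IL2 at 0.75 h, 115 had a log2 fold change above 0 after FP at 16 h, against 43.6% of all tested intergenic peaks, and 21 were called there. Those 21 made up 17.4% of the 121 and 65.6% of the 32. All 32 rises after FP at 16 h were above 0 after IL2 at 0.75 h, with a median of 1.49. By contrast, 64 of the 121 were above 0 after IL2 at 16 h (43.4% of all tested intergenic peaks were), with a median of 0.04. Among the 21 were the peaks of Vim, the gene of the filament protein vimentin, of Srp9, a signal recognition particle subunit, and of Ccdc80. The Ccdc80 peak (chr16:45038316-45039209, 54.2 kb away, 3 STAT5 matches) had 25.7, 22.9 and 27.7 CPM after IL2 and 7.32, 5.05 and 6.87 CPM in PBS at 0.75 h. At 16 h it had 15.5, 17.7 and 15.2 CPM after FP, 4.56, 7.92 and 6.16 CPM after IL2 and 4.67, 4.85 and 1.96 CPM in PBS. It was separate from PBS in both, by 1.99 ± 0.24 and 2.08 ± 0.33 (edgeR, adjusted p = 0.00101 and 0.0043).

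The change of the IL2 effect between 0.75 h and 16 h was tested directly in a fit of all 31 libraries. The labels give the times different dates, so a change between times cannot be told apart from a difference between dates. The difference IL2 minus PBS became smaller at 13 intergenic peaks and larger at 0 of 32031 tested (0.0406%, against 0.0411% of all tested peaks; DESeq2 called 70 smaller and 7 larger), and 12 of the 13 held a STAT5 match. The Gm47635 peak changed by -2.52 ± 0.48 (edgeR, adjusted p = 0.0311), from 28.8 CPM on average at 0.75 h to 4.08 CPM at 16 h, with PBS at 5.13 and 4.18 CPM. The Ptpn1 peak changed by -3.89 ± 0.64 (edgeR, adjusted p = 0.00666). Leaving out 1 library gave 3 to 20 such peaks; the count moved by over 1.5 times without PBS 3, IL2 1 or IL2 3 of 0.75 h or without any 1 of the 6 PBS and IL2 libraries of 16 h, and a fit of those 2 times alone gave 26.

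**Figure D3:**
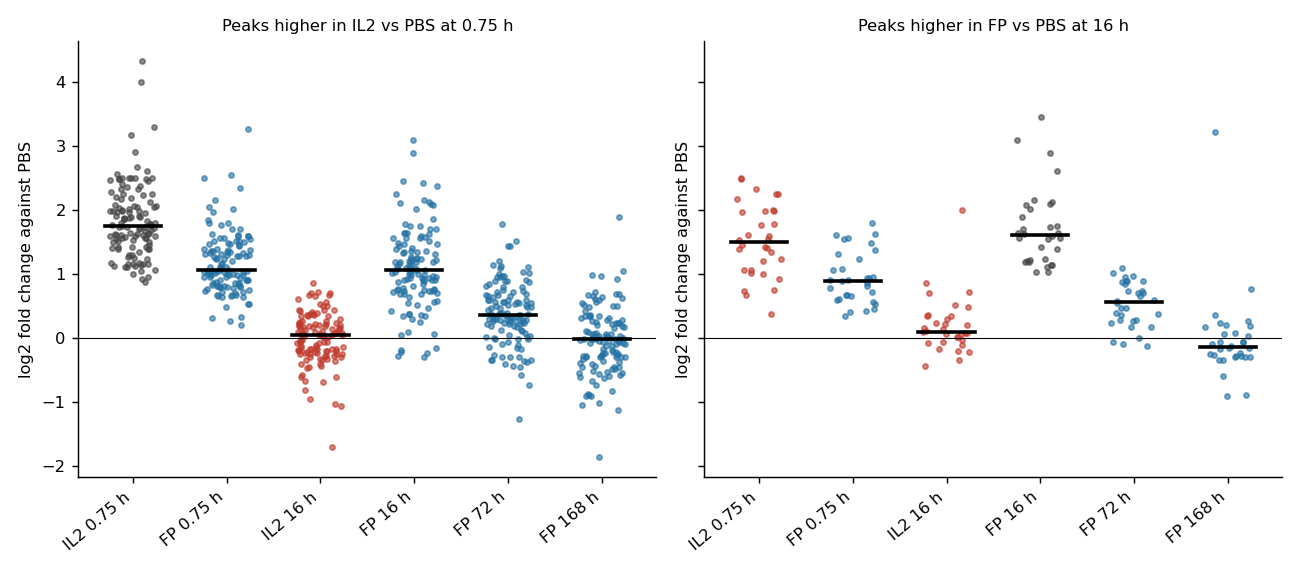
Log2 fold change against same-time PBS of the 121 intergenic peaks called higher after IL2 at 0.75 h (left) and the 32 called higher after FP at 16 h (right), each point 1 peak and each black line the median; dark grey marks the comparison in which the peaks were chosen. For the 121, FP at 0.75 h was compared with the same PBS libraries as in the choice. For the 32, this held for IL2 at 16 h. Such values are not independent of the choice. The 121 have medians of 1.06 after FP at 16 h, 0.04 after IL2 at 16 h, 0.36 after FP at 72 h and -0.02 after FP at 168 h.

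By 72 h and 168 h after FP, no intergenic peak was called. At 72 h 0 of 29625 tested passed by edgeR (1702 at unadjusted p under 0.05), beside 0.0% of all tested peaks. DESeq2 called 24 higher and 45 lower, beside 141 of 100480 tested peaks of all classes. With the library total as a covariate 51 passed, beside 127 of all tested peaks. At 168 h 0 of 31154 passed by edgeR (1565 at unadjusted p under 0.05), beside 0.0% of all tested peaks. DESeq2 called 11 higher and 1 lower, beside 27 of 102580 tested peaks of all classes. Groups did not overlap at 11.5% of all tested peaks at 72 h and at 6.25% at 168 h. The 121 early rises had a median of 0.36 at 72 h, with 96 above 0 against 36.9% of all tested intergenic peaks, and of -0.02 at 168 h, with 54 above 0 against 37.9%. Medians by the number of STAT5 matches (0, 1, 2, 3 or more) were -0.19, 0.00, 0.18 and 0.38 at 72 h, and -0.20, -0.075, -0.15 and -0.40 at 168 h. The Cd2 peak still had 8.67, 9.62 and 11.7 CPM after FP at 72 h against 2.64, 6.83 and 5.72 CPM in PBS. The groups did not overlap, yet the difference of 0.96 ± 0.33 did not pass (edgeR, adjusted p = 0.93). The change of the FP effect from 16 h to 72 h was not called at any of 32031 intergenic peaks (edgeR, 949 at unadjusted p under 0.05; 0 by DESeq2; 0.000957% of all tested peaks were called).

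The same course was seen library by library. Over the 21957 intergenic peaks with at least 1 CPM in PBS on average, the median log2 shift from same-time PBS of the 150 peaks with 2 or more STAT5 matches was compared with that of the 20144 with none. This difference was 0.752 to 0.974 in the IL2 libraries of 0.75 h, 0.310 to 0.635 in the FP libraries of 0.75 h and 0.607 to 0.641 in the FP libraries of 16 h. It was -0.034 to 0.088 in the IL2 libraries of 16 h, 0.139 to 0.382 in FP at 72 h and -0.171 to 0.096 in FP at 168 h. PBS libraries ranged from -0.268 to 0.254 over all times, the widest being those of 72 h, so that the 72 h FP libraries overlapped their controls and those of 0.75 h and of FP at 16 h did not.

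**Figure D4:**
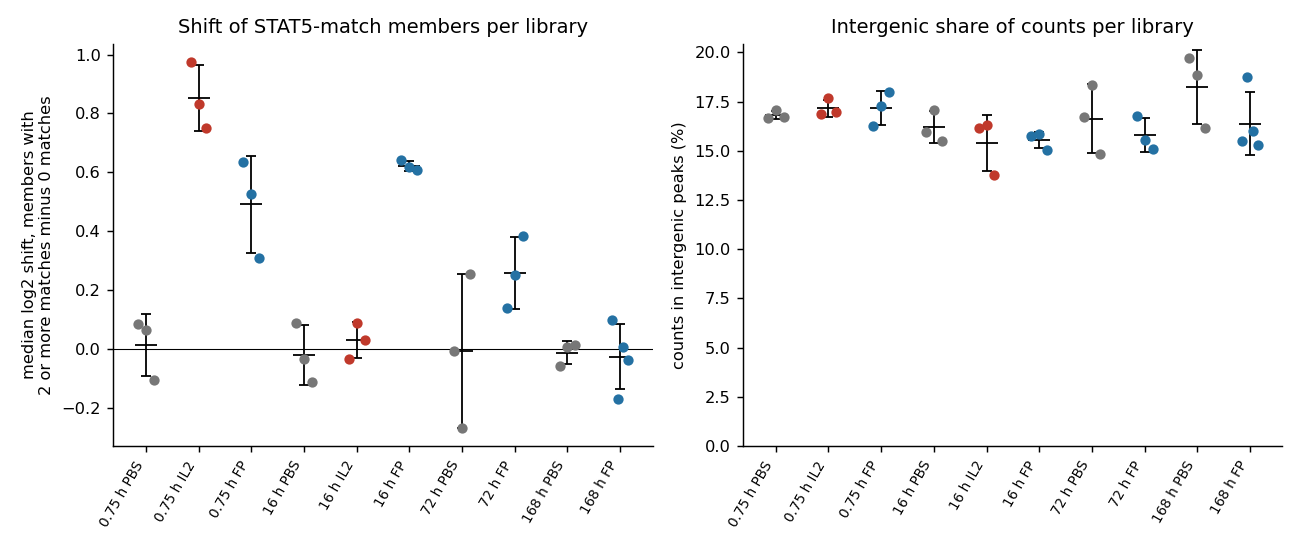
Left, for each library the median log2 shift from same-time PBS of intergenic peaks with 2 or more STAT5 matches minus that of peaks with none; right, the percentage of kept counts in intergenic peaks (axis from 0). Points are libraries, black bars the mean and SD; IL2 and FP at 0.75 h and FP at 16 h lie above their PBS libraries on the left, and no group stands apart on the right.

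Intergenic peaks far from a transcription start had lower medians than near ones in 5 of the 6 comparisons with PBS, the exception being FP at 0.75 h. Over all intergenic peaks in the fit without a filter, the median log2 fold change at 72 h after FP was -0.04 within 5 kb of a transcription start, -0.09 at 5 to 20 kb, -0.28 at 20 to 100 kb and -0.54 beyond 100 kb. At 168 h it was -0.02, -0.07, -0.32 and -0.64. At 16 h the 4 medians were -0.05, -0.07, -0.14 and -0.33 after IL2 and -0.06, -0.09, -0.11 and -0.175 after FP. At 0.75 h they were 0.02, -0.006, -0.12 and -0.24 after IL2 and 0.05, 0.03, 0.015 and 0.06 after FP. Promoter peaks had medians of 0.05 at 72 h and 0.13 at 168 h. The depth moved with this: with the library total as a covariate, the median over tested intergenic peaks went from -0.16 to 0.005 at 72 h and from -0.18 to 0.02 at 168 h. Single libraries moved it too: on leaving out 1 library the same median ran from -0.01 (without PBS 2) to -0.29 (without PBS 3) at 72 h, and from -0.08 (without PBS 1) to -0.29 (without FP 2) at 168 h. Near and far peaks also differed in kind. Within 5 kb and beyond 100 kb the median width was 303 and 194 bp and the median GC content 47.8% and 41.9%. The median level in PBS was 6.66 and 4.53 CPM per kb, and 6.57% and 3.83% held a STAT5 match. The part of depth, or of these features, in the trend with distance was not tested.

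**Figure D5:**
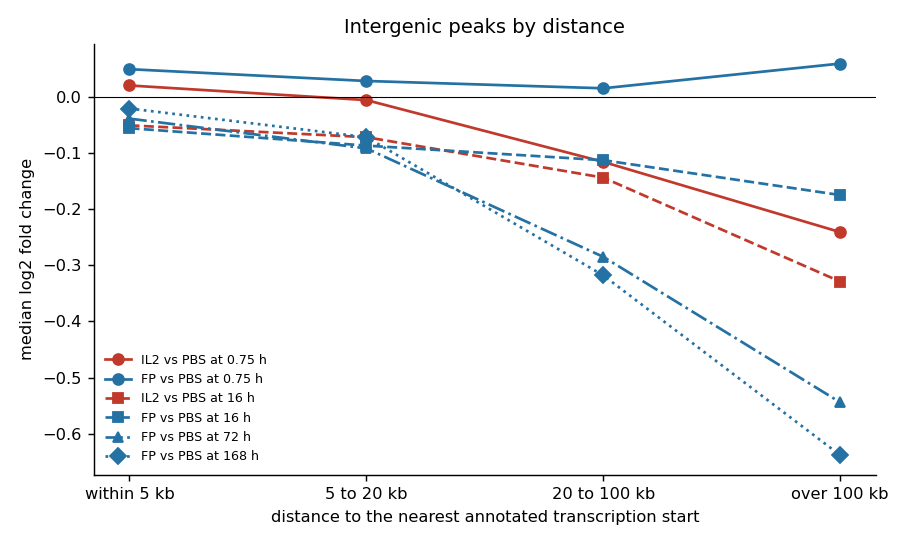
Median log2 fold change against same-time PBS of all intergenic peaks by distance to the nearest annotated transcription start (within 5 kb, 4749 peaks; 5 to 20 kb, 12842; 20 to 100 kb, 11965; over 100 kb, 2665), 1 line per comparison. The 72 h and 168 h lines fall from near 0 to -0.54 and -0.64, those of IL2 at 0.75 h and of both regimens at 16 h fall to between -0.175 and -0.33, and the line of FP at 0.75 h stays near 0.

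The 5 intergenic peaks of the highest level were assigned to Dpy19l2, Abcb11, Gm43393, Gm5110 and Zfp97, with 3152, 2243, 1232, 960 and 242 CPM per kb in PBS on average, against a 90th percentile of 14.0. None held a STAT5 or a CTCF match. The Dpy19l2 peak (chr9:24541974-24542193) had 917, 804 and 988 CPM in PBS and 725, 790 and 785 CPM after IL2 at 0.75 h, a difference of -0.24 ± 0.11 with no overlap (edgeR, adjusted p = 0.829). The Abcb11, Gm43393 and Gm5110 peaks rose and fell together from library to library: in PBS at 0.75 h they had 566, 233 and 368 CPM, 761, 284 and 492 CPM, and 483, 216 and 343 CPM. Of these 5 peaks, 0 passed in any comparison.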

How the data were processed

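Peak counts of 31 ATAC-seq libraries were read from the deposited table, in which the authors give whole-number counts per peak and a class, gene and name for each; the count unit was taken from the values. Per the submitters' processing notes, BWA and MACS2 2.1.2 were used with GRCm38/mm10; the read counter, the duplicate and mitochondrial filters and any shift for the transposase were not given in the sources used here. Peak positions and classes came from the deposited annotation. Libraries were mapped to 10 groups by their titles; the 16 h columns could be matched to their group only, so their numbers c1 to c3 are names.

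All peaks were fitted per time point with edgeR 4.0.16 (R 4.3.3; filterByExpr with a minimum count of 10 and a minimum total of 15, TMM scaling, quasi-likelihood F test, Benjamini-Hochberg adjusted p under 0.05), and changes between times in a fit of all 31 libraries. Standard errors were derived from the F statistic (absolute log2 fold change over root F). CPM values are TMM-scaled. Medians over all intergenic peaks came from the fit without the filter. Shares of counts were compared by exact permutation tests. DESeq2 1.42.0, other scalings and filters, a covariate of library total, a replicate block and leaving out each library were the alternatives. Motifs were searched in the RefSeq GRCm38.p6 genome, and distances taken from GENCODE M21. Peaks were named by rule: per comparison with PBS, the 5 largest called rises and falls (no more than 1 for each assigned gene) without overlap and with a mean log2 CPM of at least 1; up to 3 called peaks per gene list; the 5 highest levels; and the highest peak of each of 9 genes where it had an intergenic one (Bcl2, Il2ra, Cish and Ikzf2 did). Peaks called in 2 or more comparisons were added after their values were seen. The fit was tested on simulated data.

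Library totals of 7385040 to 59647438 counts set the precision. Intergenic peaks, gene lists and motifs were chosen with earlier results of these data known, among them the presence of STAT5 matches in risen peaks. Replicate numbers come from the titles, which do not say that a number marks a shared batch. Deviations of same-numbered libraries from their group means correlated at 0.136, 0.313 and 0.11 between PBS and IL2 at 0.75 h. All were over 0.1, so the block fit is given beside that comparison, and it blocked the FP libraries of 0.75 h by the same numbers. The correlations were 0.009 to 0.346 between PBS and FP and 0.02 to 0.24 between IL2 and FP at 0.75 h. They were -0.235 to 0.619 at 72 h and -0.231 to 0.454 at 168 h. Of these comparisons, only FP against PBS at 0.75 h has its block counts given beside the main ones. Results for 2 genes are not reported here.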

Additional observations from a re-analysis of the deposited data

Results flagged for a closer look

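Among 51 values tested in the group of 4 libraries (168 h FP), 2 held a library far from the others, where chance gives about 5%. The Dthd1 peak had 14.1 CPM in 168 h FP 3 and 6.83 to 8.01 CPM in the other FP libraries. The Gm45454 peak had 5.01 CPM in 168 h FP 2, a library that stood apart, and 12.1 to 12.9 CPM in the others.

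The effect of IL2 differed between 0.75 h and 16 h at the following 4 named peaks by a test of the difference itself (edgeR, all 31 libraries). The change was -2.52 on the log2 scale at the Gm47635 peak (adjusted p = 0.0311), -1.94 at the Gm2116 peak (adjusted p = 0.0025) and -3.89 at the Ptpn1 peak (adjusted p = 0.00666). It was -2.97 at the Gm47819 peak (adjusted p = 0.0255). In each of the 4 the effect was smaller at 16 h, and time cannot be told apart from date here.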

How the results depend on the processing

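Counts of called intergenic peaks depended on the method and on single libraries. With DESeq2 they were 319 (IL2, 0.75 h; 125 by edgeR), 58 (FP, 0.75 h; 1), 2 (FP against IL2, 0.75 h; 0), 141 (FP, 16 h; 32), 157 (FP against IL2, 16 h; 50), 69 (FP, 72 h; 0), 12 (FP, 168 h; 0) and 77 (change of the IL2 effect; 13). Over all tested peaks DESeq2 called 1116, 222, 6, 489, 492, 141, 27 and 274 in the same order. With the library total as a covariate the intergenic counts were 77, 0, 11, 4 and 51 for IL2 at 0.75 h, FP at 0.75 h, FP at 16 h, FP against IL2 at 16 h and FP at 72 h. Over all tested peaks these were 286, 0, 80, 34 and 127. Scaling by library totals gave 3, 9 and 17 for FP at 0.75 h, FP at 16 h and FP against IL2 at 16 h, beside 5, 54 and 62 over all tested peaks. Without a filter FP at 0.75 h gave 3, in a fit of its 2 groups 0 and in a fit of all 31 libraries 0; FP at 16 h gave 56 in a fit of its 2 groups, and the change of the IL2 effect 26 from its 2 times. Leaving out 1 library gave 46 to 148 (IL2, 0.75 h), 0 to 4 (FP, 0.75 h), 7 to 41 (FP, 16 h), 9 to 62 (FP against IL2, 16 h) and 3 to 20 (change of the IL2 effect). The cause was not tested.

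A replicate block gave 265 calls for IL2 and 37 for FP at 0.75 h, beside 0.978% and 0.128% of all tested peaks. It gave 0 for FP against IL2 at 0.75 h, and 0 at 72 h and 168 h. At 0.75 h the block fit held the FP libraries too, under the same numbers. Only for IL2 and FP against PBS at 0.75 h is it given beside the main fit, and the 16 h columns carry no such numbers. The 10 named peaks called after IL2 at 0.75 h kept their call with it.

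The difference in the share of counts turned to -0.0537 percentage points for FP at 0.75 h without FP 3 (range -0.0537 to 0.796 on leaving out 1 library). For IL2 at 16 h it turned to 0.175 with all counts as the denominator and to 0.0213 without IL2 c3 (range -1.24 to 0.0213), and for FP at 72 h to 0.000124 without PBS 2 (range -1.73 to 0.000124). The share of rises with a STAT5 match was 66.9% to 88.5% over 18 settings for IL2 at 0.75 h and 76.9% to 100.0% over 17 for FP at 16 h; this and the split by peak width were added after seeing the data. Of 283 alternatives for 16 named results, 212 kept the call, 71 lost it and 0 reversed.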
